A study of Mus musculus with 6 samples.

Results

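Interferon response genes, a list of 41 genes that cells switch on after interferon, were examined in islets of Langerhans, which hold the endocrine cells of the pancreas. The annotation gave 39 of the 41 a probe set of their own, with 64 probe sets in all, and each gene was represented by its probe set with the highest mean level over the 6 arrays. Isg15 had only a probe set shared with a second gene and Ifi44 had none, so neither is described. Of the 39 genes, 38 passed the filter on dim probe sets and were tested, among 13193 tested genes and 27022 tested probe sets of 45037, and Mx2 was below it. All islets were taken at postnatal day 30 from male OF-1 mice, an outbred stock, of wild-type genotype. Their mothers received vehicle, 10 µg/kg/day or 100 µg/kg/day of bisphenol-A, a building block of polycarbonate plastics that can act on estrogen receptors, between days 9 and 16 of gestation, and the groups are called vehicle, BPA10 and BPA100. Each group had 2 Affymetrix arrays. The vehicle arrays carried RNA of 5 pooled mice (replicate 1) and of 1 mouse (replicate 2), the BPA10 arrays RNA of 1 mouse (replicate 1) and of 2 mice (replicate 2), and each BPA100 array RNA of 1 mouse. Litters are not given in the labels, so tests measure only the spread between these arrays, and in whole islets a change in the number of cells of a type cannot be told apart from a change in RNA per cell.

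Interferons are secreted proteins that warn cells of viral infection. Type I interferons bind the receptor Ifnar1 with Ifnar2, and the kinases Jak1 and Tyk2 then activate a factor that contains Stat2 and Irf9 and binds the interferon-stimulated response element in the promoters of target genes. Type II interferon, made by T cells and natural killer cells, signals through Jak1 and Jak2 and acts on promoters that hold the gamma-activated sequence. Islet cells respond to both, and interferon-response genes in islets are well known from work on type 1 diabetes, where beta cells are attacked by T cells. The products include RNA sensors, blockers of viral replication, GTPases that act on parasite and bacterial compartments, and the machinery that presents peptides on MHC class I.

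All arrays had been scaled to the same trimmed mean, with medians of 33 to 40 and correlations between arrays of 0.945 to 0.975, the same-group pairs lying inside that range at 0.968. Signals are given below per array, replicate 1 before replicate 2, on the linear scale of the deposited values, and differences are between group means of log2(signal + 1), ± the moderated standard error (SE) of limma. A member is counted as passing when its p, adjusted by Benjamini-Hochberg over all 27022 probe sets, is under 0.05. An unadjusted p under 0.05 serves to choose which members are described with a difference, and it does not count as passing.

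In BPA10 islets, the antiviral gene Rsad2, the GTPase genes Iigp1 and Gbp2, Mx1, Siglec1, Irf8, Ifit1 and Ifi27 had higher signals than in vehicle islets. In BPA100 islets, Rsad2, Mx1, Siglec1, Ifit2, Ifit3 and Rtp4 had higher signals than in vehicle islets, and the transcription factor gene Irf7 had lower ones. Between the doses, Irf7 and Irf8 had lower signals in BPA100 than in BPA10 islets. None of these differences passed in limma: 0 of 38 members had an adjusted p under 0.05 in any of the 3 comparisons, and 0% of all tested probe sets did. At an unadjusted p under 0.05, 1914 probe sets differed for BPA10 against vehicle, 1075 for BPA100 against vehicle and 1283 for BPA100 against BPA10. The sensors, the OAS genes, Usp18 and the immunoproteasome genes were not among the members with an unadjusted p under 0.05.

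For BPA10 against vehicle, 8 of 38 members were higher at an unadjusted p under 0.05 (21.1%) and 0 were lower, where 3.12% of all tested probe sets were higher and 3.96% lower. The BPA10 arrays lay above both vehicle arrays for 14 members (36.8%, against 17.5% of all probe sets) and below both for 2, Stat2 and Parp14 (5.26%, against 18.6%). The median difference was 0.22 over the 38 members and 0.23 over the 39 with Mx2, against 0.00 over all tested probe sets, and 27 of 38 differences were above 0 (71.1%, against 50.1%). Mx1 and Siglec1 would not have passed the filter on their vehicle mean alone, and both are among the 14 and the 27 members just given. Without them 6 of 36 members were higher at an unadjusted p under 0.05, and the median was 0.22. These counts rested on vehicle replicate 2: without it the 8 became 2, Rsad2 and Gbp2, and the median became 0.064. Without vehicle replicate 1 the median was 0.42, and the unadjusted p of Gbp2 and Irf8 was over 0.05. Without BPA10 replicate 1 the median was 0.12, and that p was over 0.05 for Irf8, Ifit1, Iigp1 and Ifi27.

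For BPA100 against vehicle, 6 of 38 members were higher (15.8%, against 2.11% of all probe sets) and 1 was lower (2.63%, against 1.87%) at an unadjusted p under 0.05. The BPA100 arrays lay above both vehicle arrays for 14 members (36.8%, against 16.1%) and below both for 4, Irf7, Irf8, Stat2 and Psmb8 (10.5%, against 15.8%). The median difference was 0.11 over the 38 members and 0.11 over the 39, against 0.00 over all tested probe sets, and 23 differences were above 0 (60.5%, against 49.1%). Mx1 and Siglec1 are among the 14 and the 23 here as well. Without Mx1 and Siglec1, 4 of 36 were higher at an unadjusted p under 0.05 and 1 was lower, and the median was 0.096. Without vehicle replicate 2 the 7 members became 4, Irf7, Rsad2, Rtp4 and Siglec1, and without BPA100 replicate 2 they became 4, Irf7, Rsad2, Mx1 and Siglec1. The median was 0.24 without vehicle replicate 1 and 0.054 without vehicle replicate 2. Both doses were set against the same 2 vehicle arrays, so the 2 sets of differences are not independent of each other.

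For BPA100 against BPA10, 0 of 38 members were higher and 2 lower at an unadjusted p under 0.05 (5.26%, against 2.31% of all probe sets lower and 2.44% higher). The BPA100 arrays lay below both BPA10 arrays for 9 members (23.7%, against 15%) and above both for 5 (13.2%, against 15.7%). The median difference was -0.06, and 17 of 38 were above 0 (44.7%, against 50.5%). Leaving out 1 array moved the number of members with an unadjusted p under 0.05 between 1 and 4. A test over all 3 groups at once (moderated F) gave 8 members an unadjusted p under 0.05 (21.1%, against 5.23% of all probe sets): Irf7, Irf8, Mx1, Rsad2, Gbp2, Iigp1, Rtp4 and Siglec1. Without Mx1 and Siglec1, 6 of 36 did (16.7%). None of the 8 passed after adjustment (0% of all probe sets did).

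**Figure D1:**
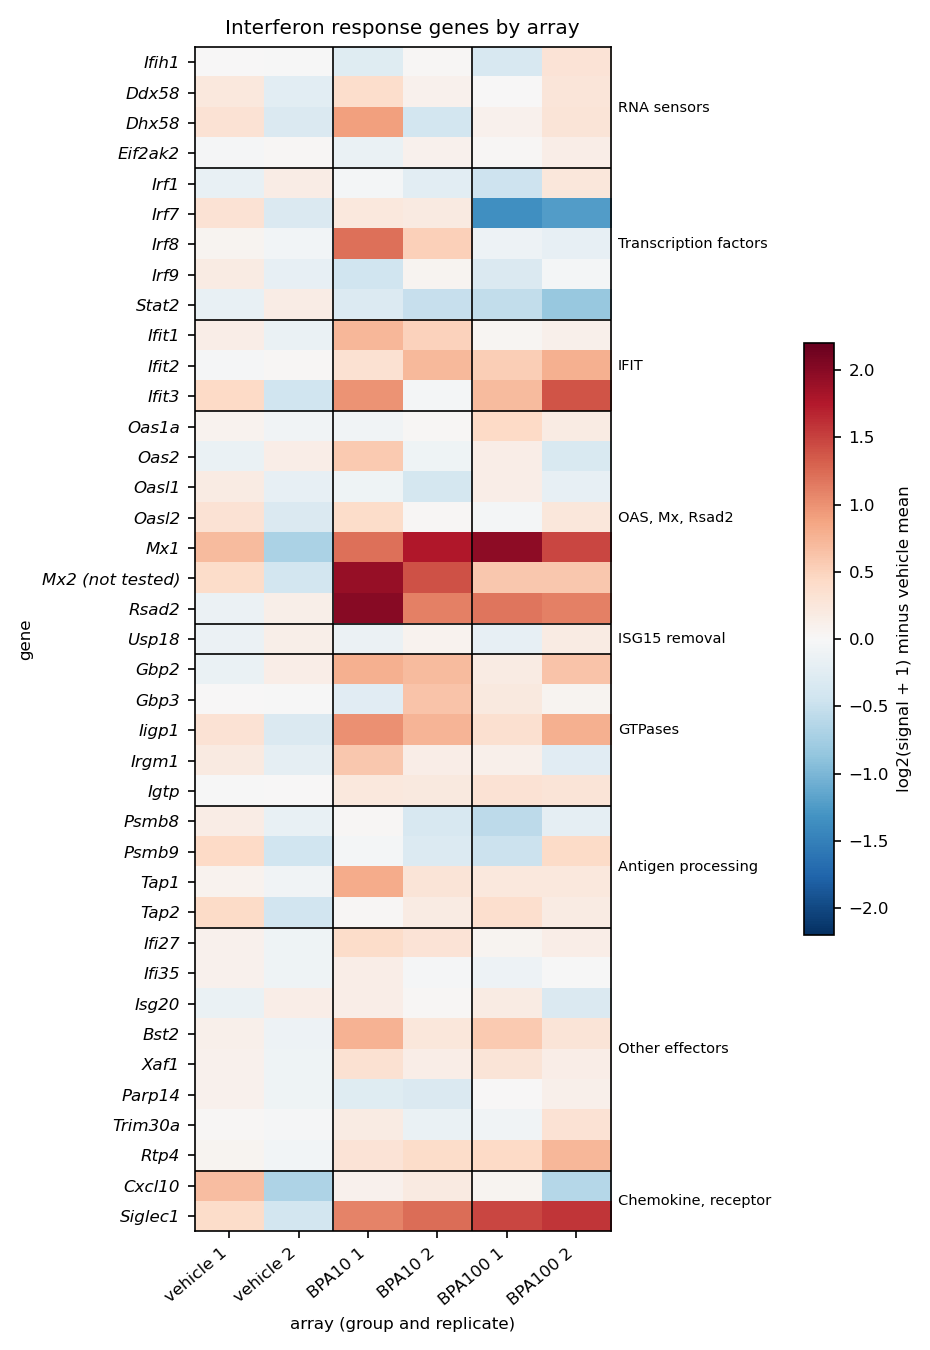
Level of each of the 39 measured interferon response genes on each of the 6 arrays, as log2(signal + 1) minus the gene's mean over both vehicle arrays (colour, red above and blue below). Rows are genes grouped by role and columns are arrays in order of dose. Rsad2, Mx1 and Siglec1 are red on all 4 bisphenol-A arrays, and Irf7 is blue on both BPA100 arrays.

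Rsad2 encodes viperin, an enzyme of the endoplasmic reticulum that makes a chain-terminating nucleotide and blocks many viruses. Its signals were 93 and 111 in vehicle islets, 411 and 221 in BPA10 islets and 232 and 219 in BPA100 islets. All 4 bisphenol-A arrays lay above both vehicle arrays, and BPA10 replicate 1 stood above the other 3. The difference was 1.56 ± 0.27 for BPA10 against vehicle (SE, adjusted p = 0.315) and 1.14 ± 0.27 for BPA100 against vehicle (adjusted p = 1). Its other 2 probe sets had the same direction. They read 63 and 49 in vehicle, 142 and 82 in BPA10 and 99 and 94 in BPA100 islets, and 36 and 33, 110 and 64, and 75 and 49 in the same order. Their differences were 0.95 and 1.26 for BPA10 and 0.78 and 0.80 for BPA100 against vehicle. Rsad2 kept an unadjusted p under 0.05 in both comparisons under all 17 other settings tried, with a smallest adjusted p of 0.125. Cmpk2, which in the RefSeq table lies next to Rsad2 and encodes a mitochondrial nucleotide kinase, is no member and read 384 and 379 in vehicle, 396 and 508 in BPA10 and 513 and 601 in BPA100 islets. It differed by 0.54 ± 0.16 between BPA100 and vehicle (SE, adjusted p = 1).

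Mx1 and Mx2 encode dynamin-like GTPases that act against viruses, and both are annotated as transcribed pseudogenes in RefSeq's C57BL/6J reference. The Mx1 signal was dim, at 20 and 7 in vehicle, 29 and 43 in BPA10 and 50 and 35 in BPA100 islets. The bisphenol-A arrays lay above both vehicle arrays, and the vehicle arrays were themselves over 2-fold apart. Mx1 differed from vehicle by 1.49 ± 0.51 in BPA10 islets (SE, adjusted p = 0.663) and by 1.73 ± 0.51 in BPA100 islets (adjusted p = 1). Without vehicle replicate 2, these differences were 0.79 and 1.03, both with an unadjusted p over 0.05, as were the differences without BPA10 replicate 2 for BPA10 and without BPA100 replicate 1 for BPA100. Mx2, too dim to be tested, read 6 and 3 in vehicle, 19 and 13 in BPA10 and 7 and 7 in BPA100 islets.

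Enzymes of the OAS family make a small oligonucleotide that switches on RNase L, and the related OAS-like proteins act in RNA sensing. Oas1a read 129 and 115 in vehicle, 115 and 124 in BPA10 and 165 and 138 in BPA100 islets, so that both BPA100 arrays lay above the other 4. The unadjusted p of Oas1a was over 0.05 in all comparisons. Oas2 read 37 and 45, 61 and 38, and 45 and 32 in vehicle, BPA10 and BPA100 islets. Oasl1 read 45 and 35, 37 and 30, and 44 and 35, and Oasl2 read 63 and 40, 67 and 51, and 49 and 60, in the same order. For these 3 genes the groups overlapped in every comparison. Of Rsad2, Mx1 and the OAS genes, 2 of 6 had higher signals at an unadjusted p under 0.05 in each comparison with vehicle (background 3.12% for BPA10 and 2.11% for BPA100), and Mx1, 1 of the 2, passed the filter only through the bisphenol-A arrays.

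The IFIT proteins are an antiviral family, of which Ifit1 binds viral RNA that lacks the host's cap methylation and blocks its translation. Ifit1 read 55 and 45 in vehicle, 83 and 71 in BPA10 and 51 and 54 in BPA100 islets. Both BPA10 arrays lay above the other 4, with a difference from vehicle of 0.62 ± 0.25 (SE, adjusted p = 0.686). Ifit2 read 48 and 50 in vehicle, 62 and 81 in BPA10 and 72 and 85 in BPA100 islets, so that all 4 bisphenol-A arrays lay above vehicle. For BPA100 the difference was 0.66 ± 0.25 (SE, adjusted p = 1). Ifit3 read 45 and 24, 66 and 32, and 54 and 88 in vehicle, BPA10 and BPA100 islets, and its vehicle and BPA10 arrays overlapped. Its BPA100 arrays were both above vehicle, by 1.04 ± 0.45 (SE, adjusted p = 1), and the close copy Ifit3b lies in the same gene cluster, so that its probe set may not tell them apart. The unadjusted p of Ifit2 was over 0.05 without either vehicle array or without BPA100 replicate 2, and that of Ifit3 without vehicle replicate 2 or BPA100 replicate 2.

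**Figure D2:**
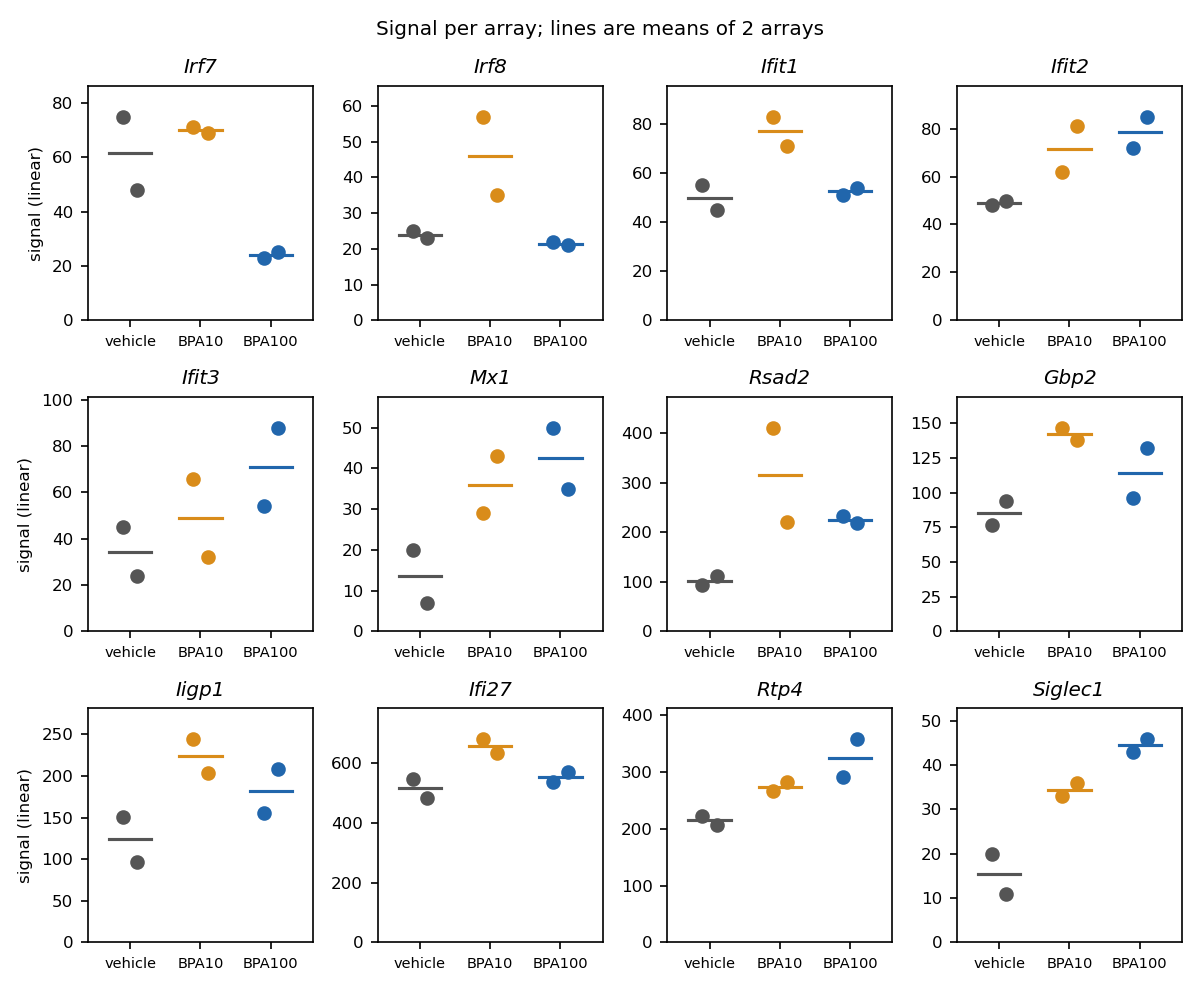
Signal on each array (linear scale, arbitrary units) of the 12 interferon response genes with an unadjusted p under 0.05 in at least 1 pairwise comparison. Points are arrays and lines are means of 2 arrays, in order of dose. Irf7 sits at 23 and 25 on the BPA100 arrays, below all others, while Rsad2 lies at 219 or more on all bisphenol-A arrays.

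The GTPase members are the large guanylate-binding proteins Gbp2 and Gbp3 and the smaller Iigp1, Irgm1 and Igtp, of families that act against parasites and bacteria in vacuoles. Gbp2 read 77 and 94 in vehicle, 147 and 138 in BPA10 and 96 and 132 in BPA100 islets, with the BPA10 arrays above all others. It differed by 0.74 ± 0.22 between BPA10 and vehicle (SE, adjusted p = 0.617). Its second probe set gave 86 and 101 in vehicle, 121 and 112 in BPA10 and 80 and 86 in BPA100 islets, a smaller difference of 0.32 for BPA10 and one of the other sign, -0.17, for BPA100 against vehicle. Iigp1 read 151 and 97 in vehicle, 245 and 204 in BPA10 and 155 and 209 in BPA100 islets, so that all bisphenol-A arrays lay above vehicle. For BPA10 the difference was 0.88 ± 0.25 (SE, adjusted p = 0.592), and its second probe set gave 0.49 for BPA10 and 0.60 for BPA100 against vehicle. Igtp read 208 and 212, 248 and 244, and 261 and 257 in vehicle, BPA10 and BPA100 islets, with 2 arrays of a group close together and no overlap between groups, but its unadjusted p was over 0.05 in each comparison. Irgm1 read 215 and 162, 282 and 206, and 202 and 157, and Gbp3 104 and 102, 87 and 159, and 120 and 108, in the same order. Among the 5 GTPase members, 2 had higher signals in BPA10 than in vehicle islets at an unadjusted p under 0.05, and 0 in BPA100 islets (background 3.12% and 2.11%).

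All 5 transcription factor members had differences below 0 in BPA100 against vehicle, where 49.1% of all tested probe sets were above 0. Of the 5, 1, Irf7, had an unadjusted p under 0.05 (background 1.87% lower). For Irf1, Irf8 and Irf9 the difference was smaller than its SE. The second probe sets of Irf8 and Stat2 had differences above 0 in this comparison, with overlapping arrays. In BPA10 against vehicle, 2 of the 5 members were above 0 and 3 below. Irf7, which drives the amplifying phase of type I interferon production and is itself interferon-induced, read 75 and 48 in vehicle, 71 and 69 in BPA10 and 23 and 25 in BPA100 islets. Both BPA100 arrays lay near the filter value of 23.3 and below the other 4. BPA100 differed by -1.29 ± 0.30 from vehicle (SE, adjusted p = 0.953) and by -1.51 ± 0.30 from BPA10 (adjusted p = 0.897). Irf7 kept an unadjusted p under 0.05 in both comparisons under the 16 other settings in which it was tested. It has only 1 probe set, so no second measurement was at hand.

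Irf8, a factor of macrophage, dendritic and B-cell development, read 25 and 23 in vehicle, 57 and 35 in BPA10 and 22 and 21 in BPA100 islets. Both BPA10 arrays were above the other 4, with replicate 1 the higher. BPA10 differed from vehicle by 0.87 ± 0.37 (SE, adjusted p = 0.688), and BPA100 differed from BPA10 by -1.02 ± 0.37 (adjusted p = 0.964). Its second probe set, below the filter, read 16 and 4, 25 and 18, and 25 and 12 in vehicle, BPA10 and BPA100 islets. On the same BPA10 replicate 1 the B-cell marker genes Ms4a1 and Cd79b read 110 and 53, against 14 to 20 and 2 to 12 on the other 5 arrays. Another B-cell marker, Cd79a, did not stand out there, with 44 and 8 in vehicle, 33 and 38 in BPA10 and 31 and 17 in BPA100 islets. Their part in the Irf8 signal was not tested.

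Stat2 and Irf9, partners in the type I interferon factor, did not have higher signals with bisphenol-A on the probe sets that represent them. Stat2 read 42 and 53 in vehicle, 38 and 33 in BPA10 and 32 and 26 in BPA100 islets, where the 3 groups did not overlap, with an unadjusted p over 0.05 in each comparison. A second Stat2 probe set read 33 and 12, 56 and 41, and 55 and 8 in the same order, and went the other way in BPA10 islets. Both BPA10 arrays of that probe set lay above vehicle, by 1.22 ± 0.81 (SE, adjusted p = 0.806), while its BPA100 and vehicle arrays overlapped. Irf9 read 188 and 147, 122 and 173, and 133 and 162, and Irf1, the main factor of the type II response, 329 and 417, 360 and 314, and 271 and 441. Both genes overlapped between all groups.

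The RNA sensors Ifih1 (MDA5), Ddx58 (RIG-I) and Dhx58 (LGP2) recognise double-stranded or uncapped RNA, and Eif2ak2 encodes the kinase PKR, which halts translation. Ifih1 read 320 and 313 in vehicle, 262 and 322 in BPA10 and 249 and 388 in BPA100 islets. Ddx58 read 186 and 135, 207 and 170, and 160 and 191, and Dhx58 32 and 20, 48 and 19, and 27 and 31, in the same order. Eif2ak2 had 119 and 124 in vehicle, 110 and 130 in BPA10 and 124 and 134 in BPA100 islets. All 4 sensor genes overlapped between all groups. Usp18, which removes Isg15 from proteins and dampens the receptor, read 358 and 425, 357 and 411, and 343 and 440 in vehicle, BPA10 and BPA100 islets, and also overlapped between all groups.

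Psmb8 and Psmb9 are subunits of the immunoproteasome, and Tap1 and Tap2 form the peptide pump of the MHC class I pathway. The 4 genes lie side by side on chromosome 17 in the RefSeq table. Psmb8 read 290 and 230 in vehicle, 263 and 203 in BPA10 and 172 and 226 in BPA100 islets, with both BPA100 arrays below vehicle. Psmb9 read 228 and 123, 163 and 136, and 121 and 224, and Tap2 211 and 116, 160 and 177, and 203 and 177, in the same order. The spread within groups was wide for these 2, and vehicle replicate 1 was the higher vehicle array for both. Tap1 read 56 and 50 in vehicle, 94 and 65 in BPA10 and 62 and 62 in BPA100 islets, all bisphenol-A arrays lying above vehicle. None of the 4 had an unadjusted p under 0.05 in a comparison.

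Rtp4, a chaperone-like regulator of antiviral responses, read 223 and 207 in vehicle, 266 and 283 in BPA10 and 292 and 359 in BPA100 islets, so that the 3 groups did not overlap. BPA100 differed from vehicle by 0.59 ± 0.16 (SE, adjusted p = 1), but by 0.17 when its second probe set, below the filter at 5 to 20, was averaged in, and its unadjusted p was 0.051 without BPA100 replicate 2 (limma). Ifi27, a membrane protein gene of the interferon signature in blood, read 549 and 484, 683 and 636, and 539 and 572 in vehicle, BPA10 and BPA100 islets. It was above the other 4 arrays in BPA10 islets, by 0.35 ± 0.13 over vehicle (SE, adjusted p = 0.680), with 0.30 for its second probe set. That probe set was also higher in BPA100 than in vehicle islets, by 0.33, with 394 and 439 in BPA100 islets, against 343 and 317 in vehicle islets. Bst2, or tetherin, which holds budding viruses at the cell surface, read 115 and 99, 181 and 127, and 159 and 130, and Xaf1, a promoter of cell death, 163 and 144, 193 and 170, and 186 and 170. Both were above vehicle on all 4 bisphenol-A arrays, with an unadjusted p over 0.05.

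Isg20, an RNA exonuclease, read 1014 and 1237 in vehicle, 1239 and 1139 in BPA10 and 1266 and 897 in BPA100 islets. Ifi35 read 970 and 860, 1016 and 892, and 842 and 912, and Trim30a 81 and 79, 91 and 72, and 76 and 100, in the same order. The groups of these 3 genes overlapped. Parp14, an ADP-ribosyltransferase, read 156 and 137, 121 and 117, and 147 and 158, with the BPA10 arrays below the other 4 and an unadjusted p over 0.05. The chemokine gene Cxcl10, whose product draws activated T cells, read 61 and 23 in vehicle, 40 and 43 in BPA10 and 39 and 24 in BPA100 islets, and differed more between the 2 vehicle arrays than between groups.

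Siglec1 encodes CD169, a sialic-acid receptor of macrophages that interferon increases. It read 20 and 11 in vehicle, 33 and 36 in BPA10 and 43 and 46 in BPA100 islets, so that the 3 groups did not overlap and stood in order of dose. Between the doses its unadjusted p was over 0.05 (limma). The signal was dim, with both vehicle arrays below the filter value of 23.3, and Siglec1 passed the filter only through the bisphenol-A arrays. The difference from vehicle was 1.16 ± 0.38 for BPA10 (SE, adjusted p = 0.645) and 1.52 ± 0.38 for BPA100 (adjusted p = 1), and without vehicle replicate 2 it was 0.76 and 1.11, the first with an unadjusted p over 0.05. Its other probe sets, at 1 to 15, were below the filter. Over 20 measured macrophage markers the summed signal was 2801 to 6186 in vehicle, 3187 to 4675 in BPA10 and 2571 to 3242 in BPA100 islets. For BPA100 against vehicle, 0 of 18 tested macrophage markers stood higher and 4 lower at an unadjusted p under 0.05 (background 2.11% and 1.87%), and in BPA10 against vehicle 1 was higher and 0 lower (background 3.12% and 3.96%).

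**Figure D3:**
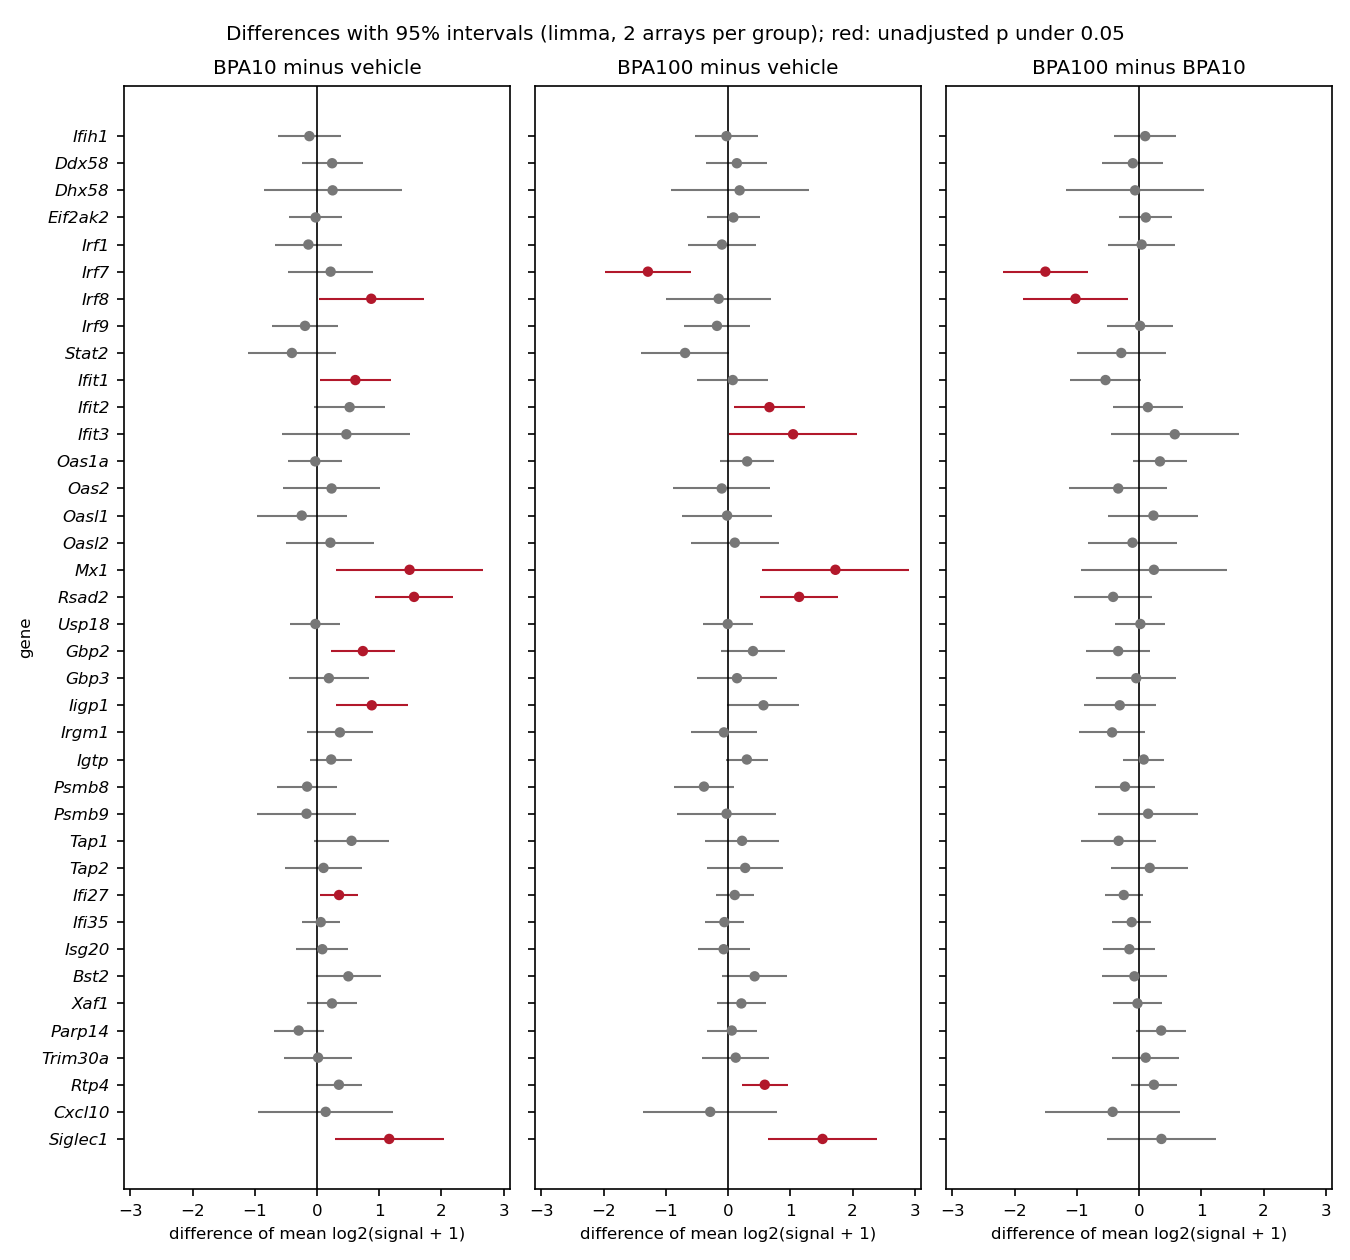
Differences between group means of log2(signal + 1) with 95% intervals for the 38 tested genes in the 3 comparisons, positive where the first-named group was higher. Red marks an unadjusted p under 0.05: 8 genes for BPA10 minus vehicle, 7 for BPA100 minus vehicle and 2 for BPA100 minus BPA10.

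Promoters of 5 members whose arrays lay above vehicle in BPA10 or BPA100 islets are shown to give the letters of the element that the type I interferon factor binds, and they were picked because they hold a match. RefSeq's GRCm38.p6 table held promoters of 250 bases before to 50 after a transcription start for 28 of the 39 measured genes. The core of the interferon-stimulated response element was searched on both strands as GAAA, any 2 bases and GAAA again, where overlapping matches were counted apart. It was present in a promoter of 15 of the 28 genes (53.6%), against 3.99% of 27025 genes. The gamma-activated sequence, searched as TTCNNNGAA, which reads the same on both strands, was in 10 of 28 (35.7%), against 9.55% of all genes. Rsad2, Ifit1, Ifit3, Gbp2 and Bst2 held the first element, and Irf7, Irf8, Ifit2, Tap1 and Xaf1 had no match to it in this window. The bases from -180 to -1 before the start are given 5′ to 3′ on the gene's strand, with matches in capitals (TTTC and GAAA forms are the 2 strands of the element, and the 2 matches of Bst2 overlap). The gamma-activated sequence is not in capitals: its 1 match in these 5 stretches, TTCCAGGAA in Bst2, starts at -136 and overlaps the first match of the other element.
Rsad2 (chr12:26456453-26456632, minus strand): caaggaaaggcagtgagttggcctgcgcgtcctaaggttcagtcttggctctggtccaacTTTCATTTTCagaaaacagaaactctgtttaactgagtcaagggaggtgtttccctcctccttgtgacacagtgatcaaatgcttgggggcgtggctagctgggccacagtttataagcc
Ifit1 (chr19:34640709-34640888, plus strand): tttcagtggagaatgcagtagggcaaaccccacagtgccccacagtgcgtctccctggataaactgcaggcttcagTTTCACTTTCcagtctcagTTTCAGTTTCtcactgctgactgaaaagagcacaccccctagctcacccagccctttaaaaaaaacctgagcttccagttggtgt
Ifit3 (chr19:34583349-34583528, plus strand): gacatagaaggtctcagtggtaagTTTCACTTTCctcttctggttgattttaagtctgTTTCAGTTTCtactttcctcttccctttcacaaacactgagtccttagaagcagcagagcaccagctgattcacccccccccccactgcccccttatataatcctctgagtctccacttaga
Gbp2 (chr3:142620483-142620662, plus strand): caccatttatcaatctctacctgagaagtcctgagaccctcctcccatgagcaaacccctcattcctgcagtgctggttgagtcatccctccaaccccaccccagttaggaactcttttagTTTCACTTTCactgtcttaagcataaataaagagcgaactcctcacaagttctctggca
Bst2 (chr8:71537473-71537652, minus strand): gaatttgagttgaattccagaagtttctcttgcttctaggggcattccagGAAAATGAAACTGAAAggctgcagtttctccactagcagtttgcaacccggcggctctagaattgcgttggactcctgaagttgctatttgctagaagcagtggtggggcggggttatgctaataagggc
A match is a description of the sequence and not a measured binding site. Ifit1 and Ifit3 share the same pair of matches, TTTCACTTTC and TTTCAGTTTC, and Gbp2 holds the first of them. The members with a match included genes with an unadjusted p over 0.05 in every comparison, such as Ddx58, Eif2ak2 and Ifih1.

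Other parts of the pathway were set beside the members. Of 34 genes for interferons, their receptors, kinases and sensors upstream, 31 had a probe set and 24 were tested. At an unadjusted p below 0.05, 0 were higher and 1 lower in BPA10 than in vehicle islets (background 3.12% and 3.96%). For BPA100, 0 differed in either direction against vehicle (background 2.11% and 1.87%) or against BPA10 (background 2.44% and 2.31%). The lower one was Socs3, a feedback inhibitor of cytokine receptors, with 261 and 170 in BPA10 islets, against 433 and 254 in vehicle islets (-0.65 ± 0.29 SE, adjusted p = 0.704). The receptor genes Ifnar1 and Ifnar2 read 151 and 125 and 405 and 374 in vehicle, 101 and 125 and 340 and 334 in BPA10, and 125 and 108 and 310 and 345 in BPA100 islets. The interferon genes themselves were below the filter: Ifnb1 read 15 to 30 and Ifng 1 to 8 over the 6 arrays.

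Of 52 further interferon-induced genes, 36 were tested. In BPA10 against vehicle 5 were higher and 0 lower at an unadjusted p under 0.05, with a median of 0.24 and 30 of 36 above 0, and 0 passed. Over all tested probe sets 3.12% were higher, 3.96% lower and 50.1% above 0. They were Ifitm3, which blocks virus entry, with 1023 and 752 in BPA10 islets, against 610 and 397 in vehicle islets (0.83 ± 0.22 SE, adjusted p = 0.579), Gbp6, Tor3a, Ly6e and Mov10. In BPA100 against vehicle 4 were higher and 0 lower, Cmpk2, Ifi47, Gbp6 and Mov10, with a median of 0.11 (background 2.11% higher). Gbp6 read 80 and 21 in vehicle, 105 and 97 in BPA10 and 89 and 111 in BPA100 islets, the gap between the vehicle arrays being larger than that between groups. BPA100 islets were lower than BPA10 islets at that level for Ifitm1, Ifitm3 and Ly6e (background 2.31% lower). Of the 36 differences 29 were below 0 and 7 above, where 50.5% of all tested probe sets were above 0.

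Of 19 MHC class I pathway genes 13 were tested, with 0 at an unadjusted p under 0.05 for BPA10 against vehicle (background 3.12% higher and 3.96% lower). There was 1 lower gene for each other comparison (background 1.87% for BPA100 against vehicle and 2.31% for BPA100 against BPA10). Those were H2-M3 (380 and 295 in BPA100 islets, against 457 and 514 in vehicle islets, -0.53 ± 0.16 SE, adjusted p = 1) and H2-K1. H2-K1, a classical class I heavy chain, read 3388 and 1504 in vehicle, 4091 and 3074 in BPA10 and 1285 and 2579 in BPA100 islets, and BPA100 differed from BPA10 by -0.96 ± 0.40 (SE, adjusted p = 0.964). Class I heavy chains are highly variable between mice and near-identical to each other, and how far the probe set tells them apart in an outbred stock was not tested.

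**Figure D4:**
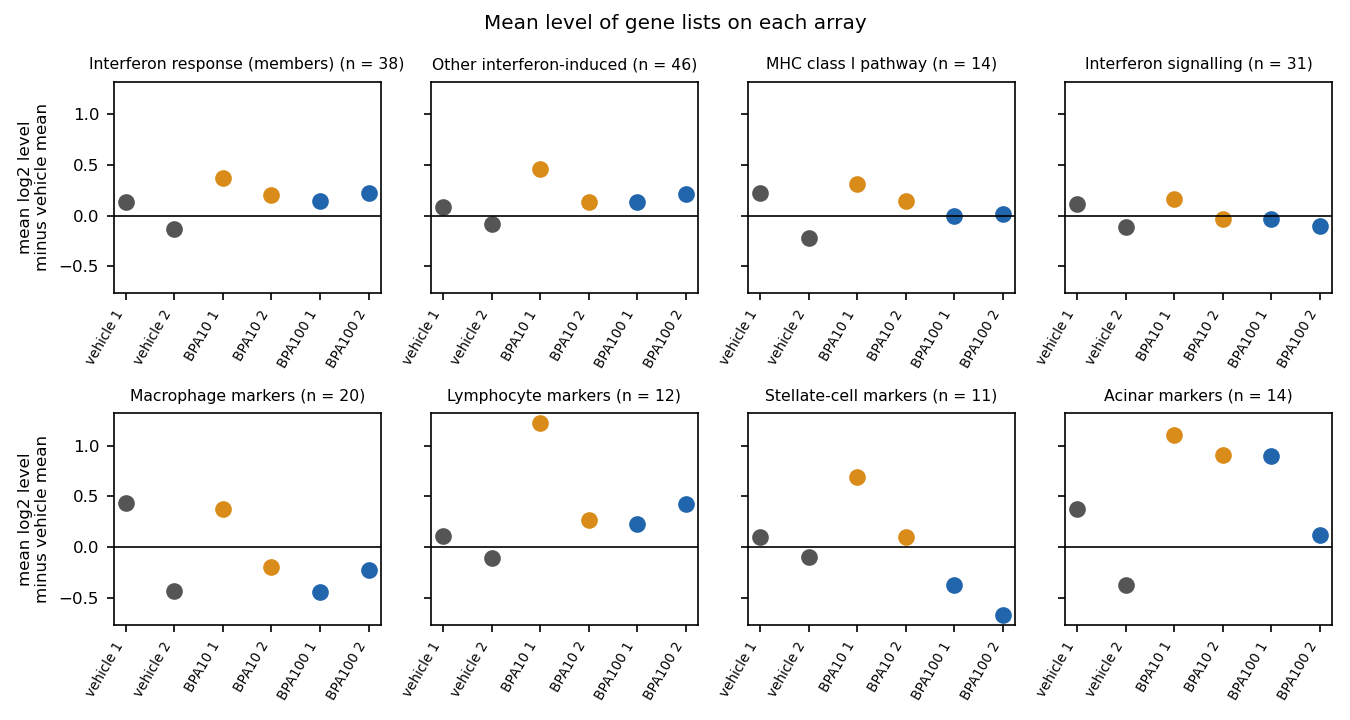
Mean level of gene lists on each array, as log2(signal + 1) minus the list's mean over both vehicle arrays, with the number of genes in brackets. The interferon response list stands at 0.14 and -0.14 on the vehicle arrays, 0.37 and 0.21 on the BPA10 arrays and 0.15 and 0.22 on the BPA100 arrays, while the acinar list stands at 1.11 and 0.91 on the BPA10 and at 0.90 and 0.12 on the BPA100 arrays.

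As a mean over the 38 members, the level above or below the vehicle mean was 0.14 and -0.14 on the vehicle arrays, 0.37 and 0.21 on the BPA10 arrays and 0.15 and 0.22 on the BPA100 arrays. Vehicle replicate 1, the pool of 5 mice, thus lay close to BPA100 replicate 1, and vehicle replicate 2 was the only array below 0. Because levels are taken from the vehicle mean, the vehicle arrays mirror each other around 0 in every list. On vehicle replicate 1, 28 of 38 members were higher than on replicate 2 and 10 lower, with a median gap of 0.18, against 0.03 over all tested probe sets. The macrophage list had the same order on these 2 arrays, at 0.44 and -0.44, and the genes Lyz1 and Lyz2 of lysozyme read 2003 and 803 on replicate 1 and 261 and 142 on replicate 2. On BPA10 replicate 1 against replicate 2, 26 members were higher and 12 lower, and the macrophage list stood at 0.38 and -0.19 and the lymphocyte list at 1.23 and 0.27. The part of these cells in the members' levels was not tested.

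Markers of other cells in the preparation also differed between groups. Acinar markers, from the enzyme-secreting exocrine pancreas, stood higher in BPA10 than in vehicle islets for 12 of 14 genes at an unadjusted p under 0.05 (background 3.12%), with summed signals of 55779 to 86819 in vehicle, 110834 to 119013 in BPA10 and 73952 to 114572 in BPA100 islets. Stellate cell and fibroblast markers were lower in BPA100 than in BPA10 islets for 8 of 11 genes at that level (background 2.31%), with a median of -0.92, the comparison in which Irf7 and Irf8 were lower. Against vehicle, 3 of the 11 were higher and 1 lower at that level in BPA10 islets (background 3.12% and 3.96%). In BPA100 islets 0 were higher and 3 lower (background 2.11% and 1.87%). Whatever the p, 9 differences were above 0 and 2 below for BPA10, and 1 above and 10 below for BPA100. Duct cell markers were lower in BPA100 than in BPA10 islets for 3 of 6 genes at an unadjusted p under 0.05 (background 2.31%), and all 6 differences were below 0. Lymphocyte markers were dim, with 4 of 12 measured genes above the filter and summed signals of 222 to 292, 289 to 585 and 271 to 292 in the same order. The T-cell gene Cd3e read 4 to 18 and the plasmacytoid dendritic cell gene Siglech 6 to 41 over the arrays, and no marker of these lists was at 0 on any array. Beta-cell markers, which the label calls for, had summed signals of 33530 to 35071 in vehicle, 40831 to 41933 in BPA10 and 36955 to 41680 in BPA100 islets over 8 genes. At an unadjusted p under 0.05, 3 of the 8 were higher and 0 lower in BPA10 than in vehicle islets (background 3.12% and 3.96%). In BPA100 islets 1 was higher and 0 lower than in vehicle (background 2.11% and 1.87%), and 2 were lower than in BPA10 (background 2.31%). Among 4 other endocrine markers, 2 were higher in BPA10 and 0 in BPA100 than in vehicle at that level (background 3.12% and 2.11%). What these shifts add to the members' differences was not tested.

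How far a member could be resolved depended on its brightness. The median SE of a difference over all tested probe sets was 0.37 where the mean signal was under 50, 0.24 between 50 and 200 and 0.16 over 200, and the 38 members lay in these ranges as 10, 18 and 10. Permuting the group labels of 2 arrays against 2 cannot give a 2-sided p below 0.333, so no exact test of a single gene was informative.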

How the data were processed

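RNA of islets was amplified over 2 rounds of cDNA synthesis from 150 ng and hybridized to 6 Affymetrix arrays, per the labels' protocols. The intensity values that the authors deposited are linear whole numbers from MAS5 (per the submitters' processing notes; version not given here). Their mean after trimming 2% at each end was 150.0 on every array, which shows scaling to one mean.

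Of 45101 probe sets, 64 controls were left out. The platform annotation named 1 gene for 34945, several for 932 and none for 9160. All 39 measured members matched the RefSeq table of GRCm38.p6. Tests used log2(signal + 1), where the added 1 shrinks fold changes of dim probe sets, and probe sets with a mean under the 40th percentile (a signal of 23.3) were not tested. limma 3.58.1 in R 4.3.3 fitted 3 group means over the 6 arrays with an intensity trend (3 residual and 5.4 prior degrees of freedom), 2-sided, with Benjamini-Hochberg adjustment over all tested probe sets. The code of the fit was tested on simulated data with independent noise, which does not show how these arrays vary.

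The members and the comparison lists were chosen with earlier results of these data known. All members were named with their signals. A difference was given for members with an unadjusted p under 0.05, and of comparison lists up to 6 such genes per comparison, with cell type markers where a result needed them. A few signals of dim or untested genes beside them were chosen after their values were seen. Other settings are compared in the closing section. The number of arrays limits the precision.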

Additional observations from a re-analysis of the deposited data

How the results depend on the processing

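The 17 other settings were quantile normalization, median centring, a pseudocount of 16, no filter, a 60th percentile filter, no intensity trend, a robust spread, only the groups compared, only arrays of 1 mouse, averaging the probe sets of each gene, a replicate block and leaving out each array. No member reached an adjusted p under 0.05 under any of them in any comparison (smallest 0.125). The 17 differences given for members kept their sign in all 276 recomputed values, but this was largely given in advance. In each of the 17, the higher group had both its arrays above both of the lower group, so leaving out an array could not reverse the sign. The filters, the trend, the robust spread, only the groups compared and the replicate block leave a probe set's difference as it is. Probe sets passing over the whole table, 0 in every comparison, became 6 with median centring for BPA100 against vehicle, and 1 for BPA10 and 4 for BPA100 against vehicle with only the groups compared. Leaving out 1 array gave 0 to 9 for BPA10 against vehicle, 0 to 5 for BPA100 against vehicle, 0 to 1 for BPA100 against BPA10 and 0 to 5 for any difference among the groups. Replicate numbers are shared between groups, but the labels do not say that they pair the mice, and the differences between replicates 1 and 2 correlated between groups at 0.08 to 0.20. The replicate block gave 7 passing probe sets for BPA100 against vehicle and 2 for any difference. Members with an unadjusted p under 0.05 numbered 8, 7 and 2 in the 3 comparisons and 8 in the F test. With the 60th percentile filter, which tests fewer genes, they were 5, 3, 0 and 4. Over all 3 groups they were also 5 with only arrays of 1 mouse and 5 when the probe sets of each gene were averaged. Leaving out 1 array gave 2 to 8, 4 to 8, 1 to 4 and 3 to 8. The members' median was 0.43, 0.24 and -0.17 with only arrays of 1 mouse, and 0.064 to 0.42, 0.054 to 0.24 and -0.17 to 0.0063 when 1 array was left out. The cause of these shifts was not tested. Where an arm is left with 1 array, it is assumed to vary like the other groups.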
